A study of Mus musculus with 6 samples.

Results

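The 30 genes described here build, take up, store and export cholesterol. They comprise 8 genes of the mevalonate arm of synthesis, 10 of the sterol arm, 4 of the SREBP2 system that senses sterols, 6 of efflux and its LXR control, and 2 that handle cholesterol esters. The genes were picked by symbol, and each of the 30 was present among the 57508 genes of the deposited tables. RNA was sequenced from KPC1199, a mouse line that its labels call pancreatic tumour cells, in 3 WT and 3 ACSL5 knockdown libraries, to ask what ACSL5 contributes as pancreatic ductal adenocarcinoma advances. Library names in both groups start with siACSL5, followed by CY3 for WT and by a number for the knockdown, and what these additions stand for is not stated. The knockdown titles say KO while the genotype label says knockdown, and the labels give no age, dose or time and do not tell separate cultures from repeat libraries, so p-values here measure the spread between libraries, which may be technical.

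Cells make cholesterol from acetyl-CoA: the mevalonate arm builds isoprenoid units and joins them to squalene, and the sterol arm closes squalene into lanosterol and trims it to cholesterol. When sterols in the endoplasmic reticulum run low, the escort protein SCAP carries the transcription factor SREBP2 to the Golgi, where it is cleaved, and the released factor switches on genes of synthesis and uptake. Insulin-induced gene products hold SCAP back when sterols are plentiful, while oxysterols activate the liver X receptors (LXRs), which switch on export of cholesterol through ABCA1, ABCG1 and apolipoprotein E. ACSL5 itself joins coenzyme A to long-chain fatty acids and is no enzyme of the sterol pathway.

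Promoters of 4 genes that carry the main patterns below, and of the classical LXR target Abca1, are printed here so that the control elements can be read beside the values. Each runs 5′ to 3′ on the coding strand from 250 bases before to 50 bases after the RefSeq start on GRCm38.p6, and capitals mark every match to 3 motifs on either strand. The motifs were the sterol regulatory element TCACNCCAC, the CCAAT box (ATTGG on the opposite strand), and a DR4 repeat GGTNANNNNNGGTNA, the arrangement LXRs bind. The Hmgcs1 promoter lies at chr13:119690101-119690400 (+), Sc5d at chr9:42264251-42264550 (-), Srebf2 at chr15:82147019-82147318 (+), Nr1h2 at chr7:44553916-44554215 (-) and Abca1 at chr4:53159846-53160145 (-).
Hmgcs1: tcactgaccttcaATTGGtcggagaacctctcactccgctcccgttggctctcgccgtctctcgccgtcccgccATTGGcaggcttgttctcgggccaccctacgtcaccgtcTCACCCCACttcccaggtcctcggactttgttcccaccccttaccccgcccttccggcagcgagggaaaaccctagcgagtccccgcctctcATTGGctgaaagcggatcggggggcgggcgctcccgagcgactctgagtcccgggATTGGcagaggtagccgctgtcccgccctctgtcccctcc
Sc5d: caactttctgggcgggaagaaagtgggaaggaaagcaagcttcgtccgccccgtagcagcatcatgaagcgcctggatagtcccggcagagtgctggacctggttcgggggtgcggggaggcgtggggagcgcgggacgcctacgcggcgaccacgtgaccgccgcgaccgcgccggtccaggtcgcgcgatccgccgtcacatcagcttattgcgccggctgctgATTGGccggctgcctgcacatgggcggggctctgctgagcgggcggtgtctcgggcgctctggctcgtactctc
Srebf2: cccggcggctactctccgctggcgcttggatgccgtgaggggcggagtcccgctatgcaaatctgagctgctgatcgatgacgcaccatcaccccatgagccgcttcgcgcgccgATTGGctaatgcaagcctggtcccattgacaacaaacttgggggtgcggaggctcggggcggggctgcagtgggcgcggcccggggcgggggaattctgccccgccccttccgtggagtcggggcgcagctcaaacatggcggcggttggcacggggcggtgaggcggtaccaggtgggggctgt
Nr1h2: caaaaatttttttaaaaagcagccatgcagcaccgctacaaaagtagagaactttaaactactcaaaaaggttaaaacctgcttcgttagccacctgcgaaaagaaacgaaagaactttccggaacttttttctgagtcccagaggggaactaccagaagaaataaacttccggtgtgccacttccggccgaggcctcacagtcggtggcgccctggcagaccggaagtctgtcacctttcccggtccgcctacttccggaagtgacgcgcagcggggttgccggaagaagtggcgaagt
Abca1: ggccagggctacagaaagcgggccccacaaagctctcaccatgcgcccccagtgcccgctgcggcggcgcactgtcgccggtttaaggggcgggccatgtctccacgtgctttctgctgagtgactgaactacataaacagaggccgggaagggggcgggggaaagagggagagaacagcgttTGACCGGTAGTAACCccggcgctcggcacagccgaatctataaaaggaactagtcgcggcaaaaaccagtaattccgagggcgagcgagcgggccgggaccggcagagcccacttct
RefSeq promoters were matched for 25 of the 30 genes. A sterol regulatory element was found in 1 of these 25 (4%), Hmgcs1, against 1.44% of the 27025 genes with a promoter in the table, and it starts at position -137 from the Hmgcs1 start. The CCAAT box was in 19 of the 25 (76.0%) against 41.1% of all genes. It was in the promoters of 14 of the 15 matched enzyme genes and in those of 1 of the 5 matched efflux and LXR genes, Mylip. The DR4 repeat was found in Abca1 alone (4% of the 25) against 0.818% of all genes, and the Nr1h2 window held none of the 3 motifs. A match of letters describes these windows and does not show that a factor bound there. Each motif was searched as 1 fixed string, so a window without a match may still hold a variant of the element.

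Library totals ran from 21794244 to 29996194 expected counts. Acsl5 was at 342.4, 265.2 and 270.2 CPM (counts scaled to library size, with TMM) in the 3 WT libraries, in order of replicate number, and at 49.8, 55.6 and 57.2 CPM in the 3 knockdown libraries, and all values below are listed in this order. The knockdown mean of 54.2 ± 3.91 CPM (SD, n = 3) was 18.5% of the WT mean of 292.6 ± 43.2 CPM (SD, n = 3), with no overlap, and the exact two-sided permutation test over 20 assignments gave p = 0.1, the smallest it can give. The summed TPM of 7 epithelial markers was high in every library (8538.67 to 9066.72 in WT and 7889.82 to 8636.41 in the knockdown). Keratin genes led by Krt19 made up most of that sum. Sox9 and Epcam, named after their values were seen, were at 13.3 to 39.92 and 30.84 to 38.76 TPM. Of markers of other cells, 4 of 4 endothelial, 5 of 6 leukocyte, 4 of 5 acinar and 3 of 6 fibroblast genes stayed below 1 TPM in every library. Of these, 2 endothelial, 2 leukocyte, 2 acinar and 1 fibroblast gene were at 0 throughout. The leukocyte sum, nearly all Cd14, was 50.34 to 63.0 TPM in WT and 83.28 to 86.76 TPM in the knockdown, the acinar sum, nearly all Cela1, 6.26 to 9.94 and 12.41 to 14.71 TPM, and the fibroblast sum 7.97 to 31.38 and 21.48 to 24.21 TPM. Their part in the results below was not tested. In bulk RNA, fewer cells of a kind and less RNA per cell cannot be told apart.

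WT replicate 1 differed from WT replicates 2 and 3 in several of these genes. Its level over the mean of WT replicates 2 and 3 ranged from a log2 value of -1.29 for Abca1, which encodes the main cholesterol exporter, to 1.53 for Fdps, which makes farnesyl pyrophosphate, with a median of 0.073 over the 28 genes tested. It was more than 1 log2 unit above them for Fdps, Pmvk, Ebp and Tm7sf2, and more than 0.5 below them for 6 genes: Abca1, Hsd17b7, Srebf2, Lss, Scap and Stard4. Short genes tended to be high and long genes low in this library, with a Spearman correlation of -0.61 between gene length and that log2 ratio across the 28 genes, given as a description since all points share the same libraries. For these reasons log2 fold changes are given without WT replicate 1 and with all 6 libraries.

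**Figure D1:**
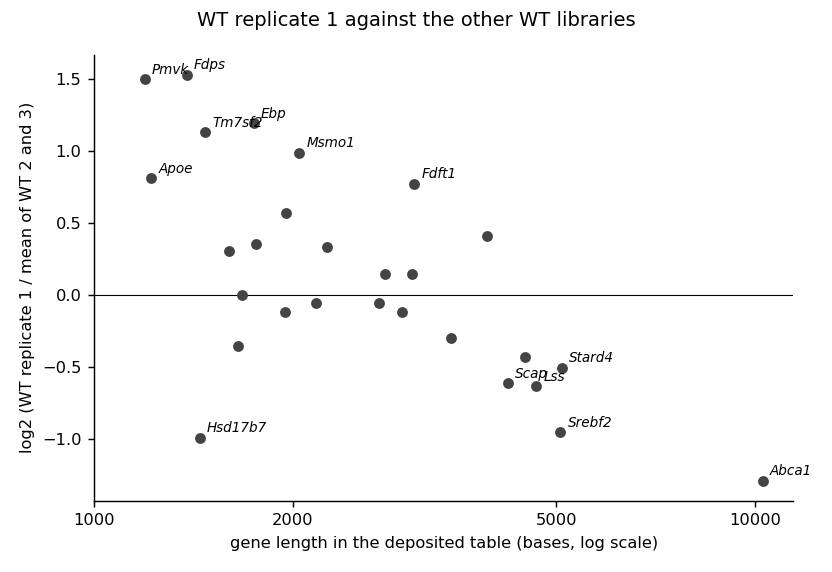
Each point is 1 of the 28 tested cholesterol genes: the x axis is the gene length in the deposited table (bases, log scale) and the y axis the log2 ratio of WT replicate 1 to the mean of WT replicates 2 and 3. Fdps (1.53) and Pmvk (1.5) lie highest among the short genes, and Abca1 (-1.29), the longest, lies lowest.

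With all 6 libraries none of the 28 tested genes passed an edgeR adjusted p below 0.05, where 0.00% of 14679 genes did (2351 genes, 16%, had an unadjusted p below 0.05, and DESeq2 called 724, 4.61%). DESeq2 called 2 of the 28 there, Apoe and Nr1h2, and edgeR with the length trend removed called 4 (5.99% of all genes), those and Scap and Hmgcs1. The lowest adjusted p among the 28 was 0.095, and 5 of them had an unadjusted p below 0.05. The knockdown libraries lay entirely above WT for 5 genes and entirely below for 8, against 18.7% and 15.6% of all genes tested (34.3% together). The 5 higher ones were Mvk, Srebf2, Scap, Nr1h2 and Apoe, and the 8 lower ones were Acat2, Hmgcs1, Idi1, Fdps, Msmo1, Nsdhl, Sc5d and Soat1. Abcg1 and Mylip had too few counts to be tested.

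Without WT replicate 1, 18 of the 28 genes were called (64.3%), 7 higher and 11 lower in the knockdown, beside 34.3% of the 15152 genes tested (16.3% higher and 18% lower). Of the 18 enzyme genes, 2 rose, 8 fell and 8 did not pass, with a median log2 fold change of -0.11. The SREBP2 system had 2 genes higher, 1 lower and 1 that did not pass. Of the efflux and LXR genes, 3 of the 4 tested rose and 1 fell, with a median of 0.83. The median over all genes tested was -0.009. Removing each library's trend with GC content left 11 calls, 6 higher and 5 lower, where 31.2% of all genes were called (15.3% higher and 15.9% lower), and a fit of log2(TPM + 1) called 8, 4 in each direction. Over all genes the log2(TPM + 1) fit called 17.8% of genes, 1459 higher (10.5%) and 1008 lower (7.26%), against 2471 and 2722 in edgeR. Leaving out WT replicate 3 as well, so that the lone WT library was assumed to vary like the others, left 10 calls (16.5% of all genes), and Acat2, Mvd, Nsdhl, Hsd17b7, Stard4, Abca1, Nr1h3 and Soat1 were lost. Without WT replicate 2 instead, 14 calls were made (19.7% of all genes), and Acat2, Nsdhl, Hsd17b7 and Abca1 were lost. The 7 genes Hmgcs1, Idi1, Msmo1, Sc5d, Srebf2, Nr1h2 and Apoe were called in the same direction under each of the 13 alternatives to this fit. The share of all genes called in this way was not computed, so it cannot be told whether 7 of 28 is unusual. The 13 also overlap. The TPM fits among them differ only in pseudocount, and the fit with the replicate number as a block takes no group difference from knockdown replicate 1. All 13 leave out WT replicate 1, and with that library none of the 7 was called in the main edgeR fit. In the rest of this section "rose" and "fell" refer to the fit without WT replicate 1.

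**Figure D2:**
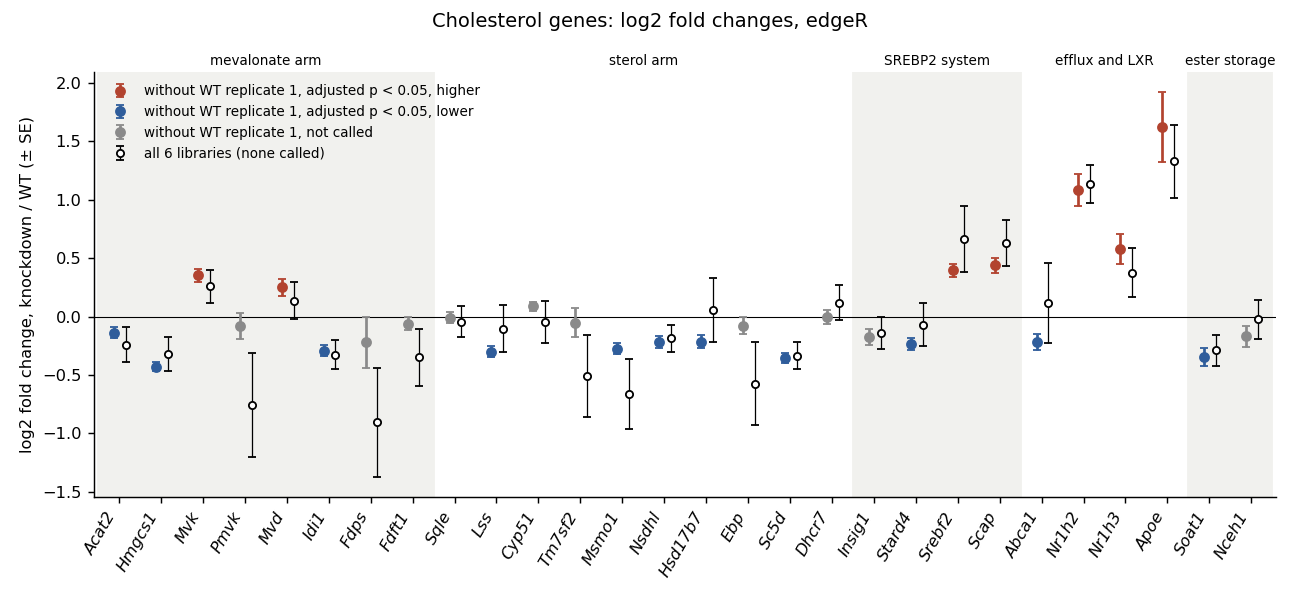
Log2 fold change of knockdown over WT (edgeR, ± SE) for the 28 tested genes, grouped by role. Filled points leave out WT replicate 1 (red, called higher; blue, called lower; grey, not called) and open points use all 6 libraries, where none was called. The 3 tallest filled points are Apoe (1.63), Nr1h2 (1.08) and Nr1h3 (0.58), and most enzyme genes lie below 0.

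Levels between genes are compared per length, as deposited TPM. In the mean of WT replicates 2 and 3 the most abundant of these transcripts were Fdps at 539.2 TPM and Cyp51, a sterol demethylase, at 425.3 TPM. Msmo1 followed at 200.9 TPM and Hmgcs1 at 165.1 TPM. Enzymes dominated the list: the 18 enzyme transcripts summed to 2437.7 and 2419.2 TPM in WT replicates 2 and 3, and the 6 efflux and LXR transcripts to 60.8 and 56.2 TPM. Within the efflux group Nr1h2 was the most abundant at 37.4 TPM, while Abca1 stood at 9.59 TPM and Apoe at 1.48 TPM.

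**Figure D3:**
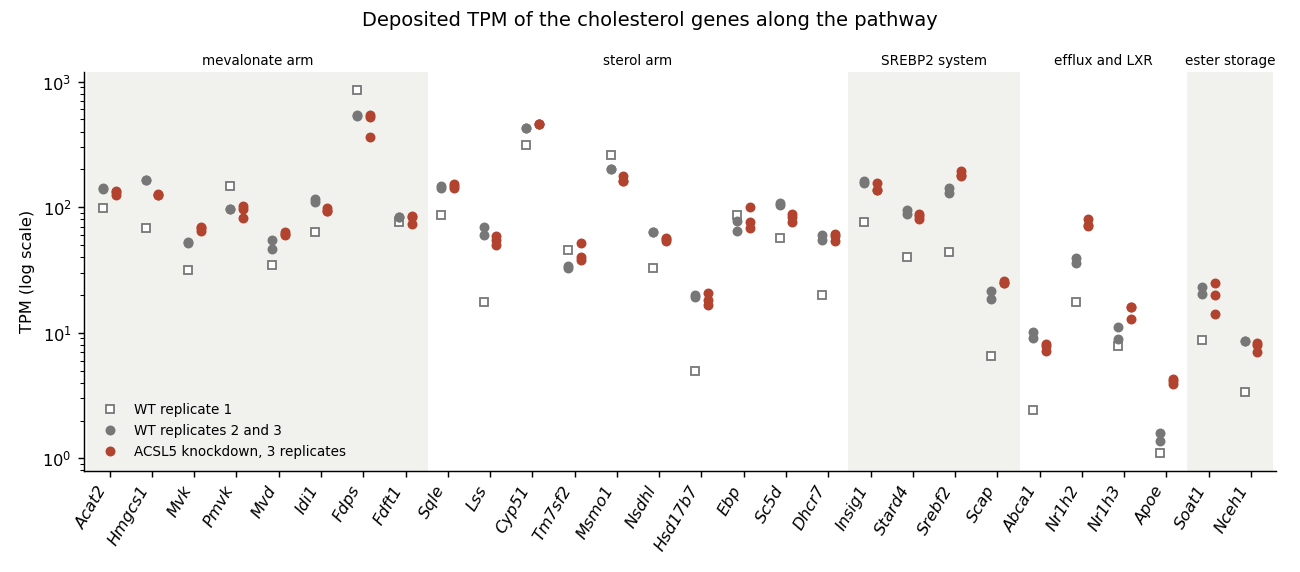
Deposited TPM (log scale) of 28 genes in each library, ordered along the pathway: grey, WT, with WT replicate 1 as open squares; red, knockdown. Enzyme transcripts lie mostly above 50 TPM and Abca1, Nceh1 and Apoe below 11 TPM, and WT replicate 1 is often the lowest or highest point of a gene.

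In the mevalonate arm 3 genes fell, 2 rose and 3 did not pass. Hmgcs1 encodes the synthase that makes HMG-CoA and is the gene with the sterol regulatory element printed above (ENSMUSG00000093930, GRCm38 chr13:119690379-119708260, 11 exons). It was at 280.9, 343.2 and 346.5 CPM in WT and at 263.2, 258.7 and 254.4 CPM in the knockdown. All 3 knockdown libraries were below all WT libraries, and WT replicate 1 was the WT library nearest to them. The knockdown mean of 258.8 ± 4.4 CPM (SD, n = 3) was 75.0% of the mean of WT replicates 2 and 3, 344.9 ± 2.27 CPM (SD, n = 2). The log2 fold change was -0.43 (SE 0.0411, edgeR adjusted p = 4.34e-05) and with all 6 libraries -0.32 (SE 0.147, adjusted p = 0.346). With the GC trend removed it was -0.30 (adjusted p = 0.00035).

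Idi1, whose product interconverts the isoprene building blocks, was at 191.8, 170.3 and 176.2 CPM in WT and at 147.0, 141.8 and 140.6 CPM in the knockdown. The groups did not overlap. Its log2 fold change was -0.29 (SE 0.0448, edgeR adjusted p = 0.000724), and -0.33 with all 6 libraries (SE 0.124, adjusted p = 0.282). With the GC trend removed it was -0.15 (adjusted p = 0.0212), and in log2(TPM + 1) with all 6 libraries the signs of Idi1 and Hmgcs1 turned (0.021 and 0.028). Acat2, the thiolase that joins acetyl-CoA units, averaged 190.9 ± 0.99 CPM in WT replicates 2 and 3 (SD, n = 2) and 175.3 ± 5.53 CPM in the knockdown (SD, n = 3), which is -0.14 on the log2 scale (SE 0.045, edgeR adjusted p = 0.0351). That small difference was not called with the GC trend removed (-0.10, adjusted p = 0.117) or in DESeq2, and with all 6 libraries it was -0.24 (SE 0.149, adjusted p = 0.444).

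The mevalonate kinase gene Mvk went the other way. It was at 57.1, 46.9 and 45.3 CPM in WT and at 61.4, 59.1 and 58.0 CPM in the knockdown, so that WT replicate 1 came just below the lowest knockdown library. Its log2 fold change of 0.35 (SE 0.0569, edgeR adjusted p = 0.000952) shrank to 0.061 (adjusted p = 0.439) once the GC trend was removed, and it was 0.26 with all 6 libraries (SE 0.141, adjusted p = 0.407). Mvd, the decarboxylase further along, had a log2 fold change of 0.25 (SE 0.0734, edgeR adjusted p = 0.0234), and WT replicate 1 at 67.5 CPM was above all 3 knockdown libraries (62.2 to 65.4 CPM). The value for all 6 libraries was 0.14 (SE 0.157, adjusted p = 0.675), and with the GC trend removed the sign for Mvd turned (-0.024, adjusted p = 0.815).

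Pmvk, Fdps and Fdft1 did not pass. Pmvk, the kinase after Mvk, was at 179.1, 63.1 and 63.7 CPM in WT and at 51.9, 61.99 and 67.3 CPM in the knockdown, with WT replicate 1 far above the rest (log2 fold change -0.084, SE 0.112, edgeR adjusted p = 0.619). The Pmvk value over all 6 libraries was -0.76 (SE 0.445, adjusted p = 0.433). Fdps was at 1099.7 CPM in WT replicate 1 and at 381.3 and 381.6 CPM in the other WT libraries, and at 254.5, 369.0 and 369.4 CPM in the knockdown. Knockdown replicate 1 was low and the other 2 were close to WT, and the log2 fold change was -0.22 (SE 0.219, edgeR adjusted p = 0.53), and -0.91 with all 6 libraries (SE 0.471, adjusted p = 0.395). Gm43738, a predicted gene on the same strand that overlaps Fdps and was named after its values were seen, was at 78.0 CPM in that library and at 3.71 to 6.30 CPM in the other 5. Summed, the pair was at 332.5 CPM in knockdown replicate 1 and at 375.3 and 375.6 CPM in the other knockdown libraries, so knockdown replicate 1 stayed lowest, by less than for Fdps alone. Fdft1, which makes squalene, was at 155.8 to 159.0 CPM in the WT libraries 2 and 3 and at 143.7 to 158.3 CPM in the knockdown (log2 fold change -0.061, SE 0.0555, edgeR adjusted p = 0.438), and its value with all 6 libraries was -0.35 (SE 0.244, adjusted p = 0.492).

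In the sterol arm 5 of the 10 genes fell and none rose. Sc5d, a desaturase of the late pathway whose promoter is printed above (ENSMUSG00000032018, GRCm38 chr9:42251595-42264256), had nearly the same level in all 3 WT libraries, 164.1, 163.4 and 165.1 CPM. It was at 130.6, 131.0 and 128.2 CPM in the knockdown. In CPM the gap between the groups was many times their spread, and WT replicate 1 did not stand apart for this gene. In deposited TPM WT replicate 1 was lowest of all, at 56.81 against 107.14 and 105.02 in the other WT libraries. The knockdown was at 76.05 to 88.75 TPM, and limma on log2(TPM + 1) with all 6 libraries gave -0.06 (adjusted p = 0.913). The knockdown mean of 129.9 ± 1.52 CPM (SD, n = 3) was 79.1% of 164.3 ± 1.16 CPM (SD, n = 2), and the log2 fold change was -0.35 (SE 0.0441, edgeR adjusted p = 0.000208). With 6 libraries it was -0.34 (SE 0.116, adjusted p = 0.251), and with the GC trend removed -0.22 (adjusted p = 0.00325).

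Msmo1, a methyl sterol oxidase, was at 463.6, 232.1 and 235.6 CPM in WT and at 195.3, 200.01 and 190.6 CPM in the knockdown. All knockdown libraries were below all WT libraries, and WT replicate 1 was far above the rest. For Msmo1 the log2 fold change was -0.28 (SE 0.044, edgeR adjusted p = 0.000898) without that library and -0.67 (SE 0.3, adjusted p = 0.344) with it, and -0.17 with the GC trend removed (adjusted p = 0.0116). Lss, the cyclase that forms lanosterol, was at 131.1, 200.1 and 205.9 CPM in WT and at 162.0, 167.7 and 169.7 CPM in the knockdown. For Lss the groups overlapped only through WT replicate 1, which was lowest of all, and the log2 fold change was -0.30 (SE 0.0469, edgeR adjusted p = 0.000778) without it and -0.11 (SE 0.202, adjusted p = 0.806) with it. Lss was not called in log2(TPM + 1) (-0.25, adjusted p = 0.146).

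The other 2 sterol genes that fell, Nsdhl and Hsd17b7, encode a dehydrogenase and a ketoreductase of sterol demethylation. Their log2 fold changes were -0.22 in both (SE 0.0502 and 0.0557, edgeR adjusted p = 0.0065 and 0.0119), and neither was called with the GC trend removed (adjusted p = 0.0809 and 0.233). Nsdhl was at -0.19 and Hsd17b7 at 0.058 with all 6 libraries (adjusted p = 0.443 and 0.924). Cyp51 was the sole sterol gene above 0, with 1139.8 and 1150.2 CPM in the WT libraries 2 and 3 and 1213.6 to 1251.5 CPM in the knockdown. The log2 fold change of 0.088 (SE 0.0392) did not pass (edgeR adjusted p = 0.111), but with the GC trend removed it was 0.18 and passed (adjusted p = 0.00492), and with all 6 libraries it was -0.046 (SE 0.18, adjusted p = 0.905). Sqle, the epoxidase that commits squalene to sterols, did not pass (log2 fold change -0.01, SE 0.0485, edgeR adjusted p = 0.904, and -0.044 with all 6 libraries), with 257.8 and 249.9 CPM in the WT libraries 2 and 3 and 269.0, 251.6 and 244.4 CPM in the knockdown. Tm7sf2 and Dhcr7, sterol reductases, and Ebp, a sterol isomerase, did not pass either, with log2 fold changes between -0.078 and -0.004. Ebp was at -0.58, Tm7sf2 at -0.51 and Dhcr7 at 0.12 with all 6 libraries (edgeR adjusted p = 0.447, 0.49 and 0.698), and WT replicate 1 had more than 1 log2 unit over the other WT libraries for Ebp and Tm7sf2.

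In the SREBP2 system the transcripts of the factor and its escort rose, Stard4 fell and Insig1 did not pass. Srebf2, which encodes SREBP2 (ENSMUSG00000022463, GRCm38 chr15:82147181-82205379, 19 exons), was at 196.1, 397.4 and 361.8 CPM in WT and at 536.9, 491.7 and 486.4 CPM in the knockdown. All 3 knockdown libraries were above all WT libraries, and WT replicate 1 was much the lowest. The knockdown mean of 505.0 ± 27.8 CPM (SD, n = 3) was 133.0% of 379.6 ± 25.1 CPM (SD, n = 2), with a log2 fold change of 0.40 (SE 0.0564, edgeR adjusted p = 0.00047). With all 6 libraries it was 0.67 (SE 0.282, adjusted p = 0.321), and with the GC trend removed 0.20 (adjusted p = 0.0108).

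Scap was at 31.9, 50.8 and 46.9 CPM in WT and at 70.4, 65.3 and 64.9 CPM in the knockdown, again without overlap. The fitted log2 fold change was 0.44 (SE 0.0619, edgeR adjusted p = 0.000442). It was 0.63 with all 6 libraries (SE 0.198, adjusted p = 0.233) and 0.18 with the GC trend removed (adjusted p = 0.0314), and in log2(TPM + 1) it did not pass (adjusted p = 0.0547). Stard4, a sterol carrier protein that is itself a target of SREBP2, fell: it averaged 272.9 ± 12.2 CPM in WT replicates 2 and 3 (SD, n = 2) and 234.6 ± 10.6 CPM in the knockdown (SD, n = 3), or -0.23 on the log2 scale (SE 0.0493, edgeR adjusted p = 0.00429). That call was lost with the GC trend removed (-0.11, adjusted p = 0.0975), and WT replicate 1 at 192.6 CPM was below every knockdown library, so the value with all 6 libraries was -0.069 (SE 0.181, adjusted p = 0.86). Insig1, which retains SCAP in the endoplasmic reticulum, was at 239.1, 245.9 and 249.7 CPM in WT and at 248.3, 209.5 and 210.0 CPM in the knockdown. Knockdown replicate 1 was at the WT level and the other 2 below it, and Insig1 did not pass (log2 fold change -0.17, SE 0.0687, edgeR adjusted p = 0.0855, and -0.14 with all 6 libraries). Without knockdown replicate 1 it was called at -0.24.

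**Figure D4:**
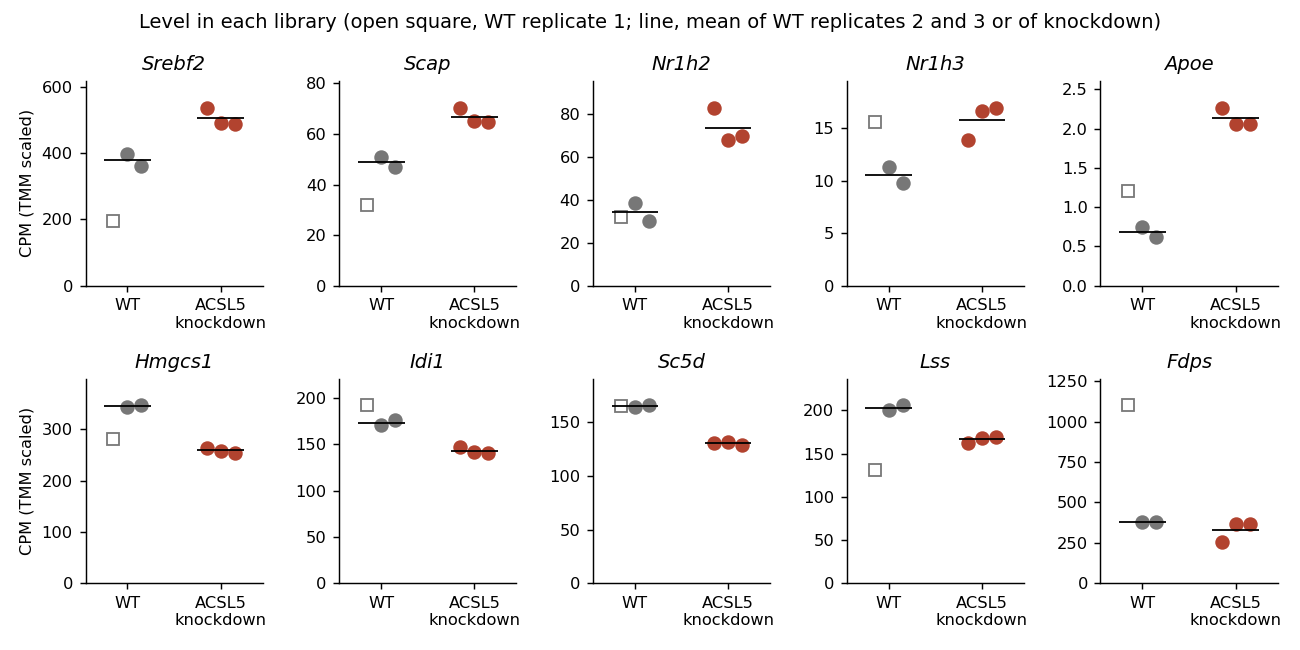
CPM in each library for 10 genes, with y axes from 0: grey, WT, with WT replicate 1 as an open square; red, knockdown; lines, the mean of WT replicates 2 and 3 and of the knockdown. Srebf2, Scap, Nr1h2 and Apoe have every knockdown point above every WT point. Hmgcs1, Idi1, Sc5d and Fdps have every knockdown point below, and Lss and Nr1h3 overlap through WT replicate 1 only.

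Among the efflux and LXR genes the 2 receptor genes and Apoe rose and the exporter Abca1 fell. Nr1h2, which encodes LXR beta (ENSMUSG00000060601, GRCm38 chr7:44549616-44553951), was at 31.8, 38.7 and 30.2 CPM in WT and at 82.9, 68.1 and 69.8 CPM in the knockdown. Every knockdown library was well above every WT library, and in CPM WT replicate 1 lay among the WT values. In deposited TPM WT replicate 1 was lower, at 17.53 against 39.1 and 35.69 in the other WT libraries. The knockdown mean was 73.6 ± 8.11 CPM (SD, n = 3) against 34.4 ± 5.99 CPM (SD, n = 2), a 2.12-fold level (log2 fold change 1.08, SE 0.137, edgeR adjusted p = 0.00239). With all 6 libraries the log2 fold change was 1.13 (SE 0.161, adjusted p = 0.095), and DESeq2 called it there (adjusted p = 6.82e-06). With the GC trend removed it was 0.73 (adjusted p = 0.000469).

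Nr1h3, which encodes LXR alpha, was less abundant, at 15.6, 11.3 and 9.77 CPM in WT and at 13.8, 16.7 and 17.0 CPM in the knockdown. The groups overlapped through WT replicate 1. For Nr1h3 the log2 fold change was 0.58 (SE 0.128, edgeR adjusted p = 0.00554) without that library and 0.38 (SE 0.213, adjusted p = 0.423) with it, and it was not called in log2(TPM + 1) (0.54, adjusted p = 0.0545). Without WT replicate 3 as well, Nr1h3 was not called (0.47).

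Apoe, a carrier of exported cholesterol, was at 21.7, 16.8 and 19.0 expected counts in WT and at 54.2, 56.3 and 56.0 in the knockdown. These low counts correspond to 1.201, 0.754 and 0.617 CPM in WT and to 2.27, 2.06 and 2.07 CPM in the knockdown, without overlap. The Apoe log2 fold change of 1.63 (SE 0.302, edgeR adjusted p = 0.00215) was the largest of the 28. With all 6 libraries it was 1.33 (SE 0.316, adjusted p = 0.154), and DESeq2 called it there (adjusted p = 0.0334). In log2(TPM + 1) without WT replicate 1 it was 1.04 (adjusted p = 0.0116).

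Abca1 (ENSMUSG00000015243, GRCm38 chr4:53030787-53159895), with the DR4 repeat printed above, was at 21.6, 53.2 and 52.3 CPM in WT and at 49.2, 46.1 and 42.5 CPM in the knockdown. WT replicate 1 was lowest and the knockdown libraries lay between it and the other WT libraries. The log2 fold change was -0.22 (SE 0.0674, edgeR adjusted p = 0.0303) without WT replicate 1 and 0.12 (SE 0.346, adjusted p = 0.879) with it, so the sign rested on that library. The call was also lost with the GC trend removed (-0.15, adjusted p = 0.128) and with the length trend removed (-0.11, adjusted p = 0.176). Abcg1, the partner exporter, had 0 counts in all 6 libraries, which allows up to 0.1 to 0.138 CPM per library for counting error. Mylip, a ubiquitin ligase that removes lipoprotein receptors, had 0 to 5 counts per library and no fold is given.

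Of the cholesterol ester genes, Soat1, which esterifies cholesterol for storage, fell. It was at 46.6, 50.2 and 50.7 CPM in WT and at 44.8, 39.0 and 36.9 CPM in the knockdown, without overlap, and the log2 fold change was -0.34 (SE 0.078, edgeR adjusted p = 0.00641). With the GC trend removed it was -0.22 and was not called (adjusted p = 0.0515), nor was it in log2(TPM + 1) (-0.18, adjusted p = 0.629). The Soat1 value over all 6 libraries was -0.29 (SE 0.133, adjusted p = 0.35). Nceh1, a hydrolase of cholesterol esters, did not pass (-0.17, SE 0.0884, edgeR adjusted p = 0.17, and -0.025 with all 6 libraries). Nceh1 was also the 1 gene of 30 (3.33%) with GAACTAC or AACTACA in its 3′ UTR, catatggaaatAACTACAgcacaggctacc with the 7-mer in capitals, against 12% of 12160 tested genes. These 7-mers had been found earlier from the fold changes of these same data.

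The synthesis set was then set against the efflux set. In each library the mean log2 CPM of the 18 enzyme genes was taken minus that of the 4 tested efflux and LXR genes. The difference was 3.85, 3.33 and 3.51 log2 units in WT and 2.61, 2.69 and 2.71 in the knockdown. Every WT library, WT replicate 1 included, was above every knockdown library. The median log2 fold change of the enzyme genes minus that of the 4 tested efflux and LXR genes was -0.94 without WT replicate 1 and -1.04 with it, and -0.68 and -0.70 with the GC trend removed. The mean of the efflux and LXR genes moved more, carried by Nr1h2, Nr1h3 and Apoe, while the exporter Abca1 fell and Abcg1 was at 0. Their mean log2 CPM was 3.55 to 3.73 in WT and 4.26 to 4.33 in the knockdown, and that of the enzymes was 7.05 to 7.42 and 6.94 to 6.97. In log2(TPM + 1) with all 6 libraries, where the median of all genes was shifted to 0.26, the enzyme median was positive at 0.10 and that of the efflux and LXR genes was 0.88. The summed TPM of the efflux and LXR genes was 28.9, 60.8 and 56.2 in WT and 106.3, 99.6 and 99.7 in the knockdown, and Nr1h2 made up most of it. The summed TPM of the enzymes was 2295.4, 2437.7 and 2419.2 in WT and 2154.9, 2381.8 and 2356.8 in the knockdown, and WT replicate 1 fell within the knockdown range. These are descriptions with no test, since the sets were drawn up with results of these data known.

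The direction of change across these genes went with their base composition. The 7 genes that rose had a transcript GC content of 57.6% to 60.6% (median 59.3%), the 11 that fell 41.9% to 52.2% (median 44.1%), and the 10 that did not pass 44.5% to 57.0% (median 51.4%). GC ranges of risen and fallen genes did not overlap. The Spearman correlation of GC content with the log2 fold change without WT replicate 1 was 0.83 across the 28 genes and 0.53 after the GC trend was removed, against 0.33 across 14591 genes. These are descriptions, since genes share the same 5 libraries. Of the 7 risen genes, Mvk and Mvd were not called with the GC trend removed, and Srebf2, Scap, Nr1h2, Nr1h3 and Apoe were. Of the 11 fallen genes, Hmgcs1, Idi1, Lss, Msmo1 and Sc5d were called with the trend removed.

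**Figure D5:**
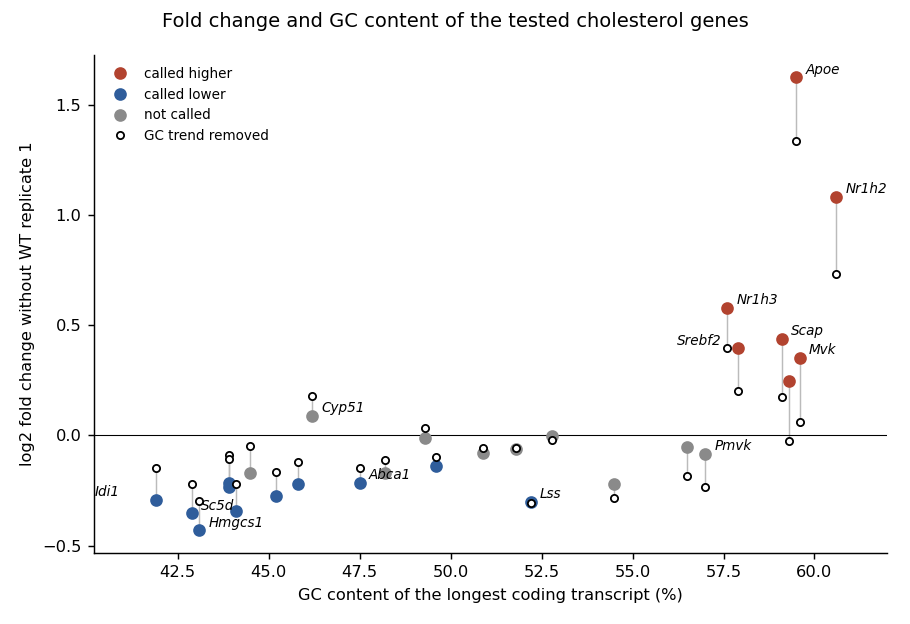
GC content of the longest coding transcript (x axis, %) against the log2 fold change without WT replicate 1 (y axis) for the 28 tested genes; filled points by call, open points with each library's GC trend removed, joined by a grey line. The genes called higher lie at 57.6% GC or above and those called lower at 52.2% or below, and removing the trend moves most points towards 0.

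Replicates of the knockdown were close for most of these genes. The ratio of the highest to the lowest knockdown CPM had a median of 1.09, and it was above 1.2 for 6 genes (Pmvk, Fdps, Tm7sf2, Nr1h2, Nr1h3 and Soat1). Between WT replicates 2 and 3 that ratio had a median of 1.03. Calls without WT replicate 1 rest on this close pair for the WT level and spread. Reads of several genes could be shared with other loci. Expected counts were not whole in all 6 libraries for Acat2, Idi1, Fdps, Fdft1, Cyp51 and the low-count gene Apoe. They were not whole in 5 libraries for Hmgcs1, Msmo1 and Scap. Cyp51 overlaps Akap9 and Fdft1 overlaps Ctsb on the opposite strand, and whether the counting used strand is not given in the sources used here. Tm7sf2 overlaps Vps51 on its own strand, and Idi1 has 5 pseudogene loci in the table. Of these Idi1-ps1 was at 7.05 to 20.9 CPM in WT and at 2.42 to 3.53 CPM in the knockdown, and Idi1 plus Idi1-ps1 was still lower in every knockdown library (143.1 to 149.8 CPM) than in every WT library (177.4 to 212.7 CPM).

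A list of 24 other genes of cholesterol metabolism served for comparison. Of these, 4 rose, 6 fell and 14 did not pass without WT replicate 1, with a median log2 fold change of -0.006, where 34.3% of all genes were called (16.3% higher and 18% lower). With all 6 libraries edgeR called none of them and DESeq2 called 1, Ggps1. Stard3, which moves cholesterol between late endosomes and other membranes, rose from 103.7, 101.9 and 100.1 CPM in WT to 134.1, 134.9 and 132.7 CPM in the knockdown (log2 fold change 0.39, SE 0.0468, edgeR adjusted p = 0.000166). WT replicate 1 lay with the other WT libraries for this gene in CPM, but in deposited TPM it was lower (46.65 against 94.68 and 96.26). Ggps1, which draws farnesyl pyrophosphate off towards protein prenylation, fell by 0.47 on the log2 scale (SE 0.0771, edgeR adjusted p = 0.001), and DESeq2 over all 6 libraries gave -0.51 (adjusted p = 0.0477). Gramd1b, a carrier of plasma membrane cholesterol, and Rnf145, a ubiquitin ligase of the sterol feedback, fell by 0.35 and 0.26 on that scale (edgeR adjusted p = 0.00136 and 0.00249). Ggps1 and Gramd1b were not called in log2(TPM + 1) (adjusted p = 0.186 and 0.275), nor was Rnf145 with the GC trend removed (adjusted p = 0.0529). Over all 6 libraries edgeR gave 0.39 for Stard3, -0.51 for Ggps1, -0.14 for Gramd1b, -0.096 for Rnf145 and 0.58 for Srebf1. Srebf1, which encodes the fatty acid counterpart of SREBP2 and is an LXR target, rose by 0.29 (SE 0.055, edgeR adjusted p = 0.00243), but it was not called with the GC trend removed (0.069, adjusted p = 0.297) or without WT replicate 3 (0.20), and its sign turned in log2(TPM + 1) (-0.085).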

How the data were processed

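Per the file headers, the authors deposited 2 tables, one of expected counts (estimated counts) per gene and library and one of TPM. The tools fastp, HISAT2, StringTie and DESeq2, and the human builds hg38 and GRCh38, come from the submitters' processing notes, although the tables carry mouse Ensembl identifiers. Versions, roles, strand setting and counting program were not given in the sources used here. Between 10.1% and 13.0% of the estimated counts of a library were not whole, so they were rounded. Columns of group means were not used.

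In R 4.3.3, edgeR 4.0.16 compared the groups by its quasi-likelihood test (robust, filterByExpr, TMM), two-sided. Adjustment was by Benjamini-Hochberg across every tested gene, with a call below 0.05. Log2 fold changes are knockdown minus WT, and their SE is the absolute log2 fold change over the square root of F. The limit given for a count of 0 is 3 counts over the library total, without TMM, and covers counting error only. Alternatives were DESeq2 1.42.0, its size factors, no filter, limma 3.58.1 on TPM (pseudocounts 1 and 0.1, genes averaging 1 TPM or more in either group), a replicate block, removal of each library's lowess trend (span 0.3) with gene length or GC content, and leaving out each library. The code was tested on data simulated for the libraries other than WT replicate 1, with the same dispersion for every gene. That simulation held no outlying library and no trend with length or GC content, and the fit with the GC trend removed was not run on it. Differences in log2(TPM + 1) understate those of low genes.

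Positions, GC content (known for 96.3% of 15152 genes) and 3′ UTRs are from GENCODE M21 on GRCm38, and promoters from RefSeq. The members and lists were chosen with earlier results of these data known. All 30 members and Acsl5 are named, of the other pathway genes at most 8, those called with the smallest p, and the leading gene of marker lists. Of those 8, 5 are named and 3 are not reported here.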

Additional observations from a re-analysis of the deposited data

How the results depend on the processing

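Over all 6 libraries edgeR called 0 genes. DESeq2 called 724, removal of the length trend 879, removal of the GC trend (an alternative chosen after seeing the data) 3 and no filter 4, and leaving out 1 library in turn gave 0 to 5193. Of the cholesterol genes 0 were called there, 2 in DESeq2 (Apoe and Nr1h2), 4 with the length trend removed (those and Scap and Hmgcs1) and 0 to 18 with 1 library left out. Without WT replicate 1 edgeR called 5193 genes, and log2(TPM + 0.1) and log2(TPM + 1) called 2569 and 2467. Leaving out a further library gave 2599 to 6188 genes and 10 to 20 cholesterol genes, against 18. The GC trend removed gave 11 cholesterol genes, and both TPM scales gave 8. The enzyme minus efflux median was -1.04 with 6 libraries, -0.70 with the GC trend removed, -0.78 in log2(TPM + 1) and -1.07 to -0.94 with 1 library left out. Without WT replicate 1 it was -0.94, and -0.68, -0.83 and -1.09 to -0.84 in the same order. It was negative in every one of these. The cause of these shifts was not tested.

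Signs of these log2 fold changes turned. With 6 libraries, log2(TPM + 0.1) and log2(TPM + 1) gave Acat2 0.067 and 0.066, Hmgcs1 0.03 and 0.028, Idi1 0.021 and 0.021, Sqle 0.27 and 0.27, Lss 0.37 and 0.36, Cyp51 0.27 and 0.27, Tm7sf2 0.21 and 0.20, and Nsdhl 0.12 and 0.12. They also gave Ebp 0.079 and 0.078, Insig1 0.21 and 0.21, Stard4 0.27 and 0.27, Soat1 0.25 and 0.23, Nceh1 0.29 and 0.24, Gramd1b 0.14 and 0.12, and Rnf145 0.23 and 0.22. Without WT replicate 1 they gave Sqle 0.02 and 0.02, Tm7sf2 0.35 and 0.35, Ebp 0.17 and 0.17, Dhcr7 0.022 and 0.022, and Srebf1 -0.085 and -0.085. With the GC trend removed, Mvk was -0.057, Mvd was -0.16, Stard4 was 0.014 and Nceh1 was 0.052 with 6 libraries, and Mvd was -0.024 and Sqle 0.034 without WT replicate 1. With the length trend removed Abca1 was -0.089 with 6 libraries. Without WT replicate 1, Sqle was 0.001 in DESeq2, 0.002 with its size factors and 0.007 with no filter, and Dhcr7 was 0.006, 0.007 and 0.012. With 1 library left out of 6, the values ran for Nceh1 from -0.17 to 0.066, Cyp51 from -0.12 to 0.088, Hsd17b7 from -0.22 to 0.21, Dhcr7 from -0.004 to 0.19, Abca1 from -0.22 to 0.32, Rnf145 from -0.26 to 0.005 and Stard4 from -0.23 to 0.03. With a further library left out after WT replicate 1, they ran for Pmvk from -0.16 to 0.028, Dhcr7 from -0.028 to 0.044, Sqle from -0.035 to 0.029, Tm7sf2 from -0.17 to 0.067 and Ebp from -0.16 to 0.002.

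With the replicate number as a block, 0 genes and 0 cholesterol genes were called over 6 libraries. Without WT replicate 1 the block fit called 5753 genes and 19 cholesterol genes, and Insig1 was gained. Knockdown replicate 1 was then alone in its block and added nothing to the group comparison. That fit therefore does not show an effect of pairing. The block gave a log2 fold change of 0.019 for Pmvk and 0.034 for Dhcr7 without WT replicate 1, both of the opposite sign. Whether the numbers pair the libraries cannot be told from these data. Deviations from the group mean correlated at -0.13, 0.04 and -0.19 for same-numbered libraries across 14679 genes, and at -0.2 to 0.21 for differently numbered ones. With 3 libraries in a group these deviations depend on each other, so the values do not decide it. Depth limits Apoe, Abcg1 and Mylip most, and the small number of libraries limits all of these results.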
